A study of Mus musculus with 6 samples.

Results

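The 9 genes described here encode proteins with which hematopoietic stem cells (HSCs) find and hold their place in the bone marrow: the chemokine receptor *Cxcr4*, the integrin subunits *Itga4*, *Itga6*, *Itgal* and *Itgb1*, the selectin ligand *Selplg*, the hyaluronan receptor *Cd44*, the counter-receptor *Vcam1* and the niche ligand *Angpt1*. They were taken from the deposited count table by symbol, and all 9 were found among its 34573 genes and had enough reads for a test, as did 14004 genes in all. The HSCs were sorted from bone marrow of adult mice as lineage-negative CD48-CD150+ cells. The study compared 3 *Rpl22*-/- samples, from mice lacking the ribosomal protein Rpl22, with 3 *Rpl22*+/+ samples, each from young adult animals on the C57BL/6 background with no treatment named, and sequenced the polyadenylated RNA of each as its own library. Whether a sample came from 1 animal or a pool is not given in the sources used here, so the p-values measure the spread between these samples.

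An HSC that enters the circulation returns to the marrow by a series of contacts. Selectins on the vessel wall catch glycans carried by PSGL-1, the product of *Selplg*, and by CD44. The chemokine CXCL12, made by marrow stromal cells, then signals through CXCR4 and switches integrins to their adhesive state, and the integrin formed by the products of *Itga4* and *Itgb1* binds VCAM-1 and fibronectin on endothelium and stroma. *Itga6* pairs with *Itgb1* to form a laminin receptor, and *Itgal* pairs with *Itgb2* to form LFA-1, which binds ICAM molecules. Angiopoietin-1, the product of *Angpt1*, is a ligand of the receptor Tie2, encoded by *Tek*, and is known for its part in HSC quiescence.

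The libraries held from 9321123 to 13385850 gene-assigned reads, and levels below are counts per 1000000 reads (CPM) after TMM scaling. *Rpl22* had 449 to 546 reads in the 3 *Rpl22*-/- libraries against 5031 to 7001 in the *Rpl22*+/+ libraries. Of 12 HSC markers all were detected, and their summed level was 3115 to 3441 CPM in *Rpl22*-/- and 3212 to 3245 CPM in *Rpl22*+/+ libraries. Single markers differed in opposite directions within that sum. *Gata2* was higher in *Rpl22*-/- HSCs (log2 fold change 0.39, edgeR quasi-likelihood adjusted p = 0.0190) and *Fgd5* was lower (−0.41, adjusted p = 0.0308). The sample labels name neither Sca-1 nor c-Kit, while the study's list of cell populations defines murine HSCs as positive for both, and their genes *Ly6a* and *Kit* had at least 422 and 9516 reads in each library. Marker sums of some other cells differed between the genotypes. A list of 9 megakaryocyte and platelet genes, *Gp6* among them at 0 reads throughout, summed to 1087 to 1337 CPM in *Rpl22*-/- and 758 to 995 CPM in *Rpl22*+/+ HSCs. A list of 8 neutrophil genes summed to 33.0 to 139 CPM and 9.55 to 29.7 CPM, with the highest value in *Rpl22*-/- replicate 2. In that library *Mpo* alone made up 101 CPM and *Elane* 20.2 CPM. Of the 7 neutrophil genes tested, 6 had a positive log2 fold change and 1 a negative one, *S100a8* (mean 2.05 CPM in *Rpl22*-/- and 2.30 CPM in *Rpl22*+/+ HSCs). Sums over markers of macrophages (227 to 290 and 222 to 245 CPM), endothelium (229 to 267 and 233 to 273 CPM), stroma (22.1 to 29.6 and 25.9 to 38.2 CPM) and erythroid cells (31.1 to 36.8 and 32.8 to 42.1 CPM) overlapped between the genotypes, although within the macrophage list *Cd163* rose, from 249 to 263 reads in *Rpl22*+/+ libraries to 387 to 427 in *Rpl22*-/- libraries (log2 fold change 0.53, SE 0.137, edgeR quasi-likelihood adjusted p = 0.0344). Those of B cells (27.1 to 29.6 and 23.2 to 25.2 CPM) and of T and NK cells (37.6 to 44.8 and 29.0 to 35.6 CPM) did not, although *Cd3e* was at 0 reads in all libraries, as was the stromal gene *Adipoq*. Within the erythroid list *Car1* fell, from a mean of 10.2 to 3.96 CPM, although its libraries overlapped (log2 fold change −1.37, SE 0.326, edgeR quasi-likelihood adjusted p = 0.0246). In that list DESeq2 called 1 gene lower and limma-voom 0, so the call of *Car1* was lost with limma-voom. Of the endothelial sum, *Tie1* alone made up a mean of 242 CPM in each genotype. Bulk RNA cannot tell fewer cells of a type from less RNA per cell.

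*Cxcr4* is the member whose difference passed the adjusted threshold, and its promoter is shown for that reason beside that of *Itga4*, an abundant member that did not pass. Both are RefSeq sequences of GRCm38.p6, from 250 bases before to 50 bases after the transcription start, written 5′ to 3′. RefSeq promoters were matched for 4 of the 9 members, the other 2 being *Cd44* and *Itgb1*. The *Cxcr4* window is chr1:128592250-128592549 on the reverse strand, and the *Itga4* window is chr2:79255176-79255475 on the forward strand. Capitals mark matches, on either strand, to the 6 motifs spelled out after the sequences.

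Cxcr4: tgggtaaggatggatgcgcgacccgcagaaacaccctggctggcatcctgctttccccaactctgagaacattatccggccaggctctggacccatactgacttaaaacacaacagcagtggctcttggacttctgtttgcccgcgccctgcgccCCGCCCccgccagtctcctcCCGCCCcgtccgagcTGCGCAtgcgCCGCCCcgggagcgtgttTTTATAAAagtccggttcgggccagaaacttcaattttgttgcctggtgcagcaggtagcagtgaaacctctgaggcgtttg

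Itga4: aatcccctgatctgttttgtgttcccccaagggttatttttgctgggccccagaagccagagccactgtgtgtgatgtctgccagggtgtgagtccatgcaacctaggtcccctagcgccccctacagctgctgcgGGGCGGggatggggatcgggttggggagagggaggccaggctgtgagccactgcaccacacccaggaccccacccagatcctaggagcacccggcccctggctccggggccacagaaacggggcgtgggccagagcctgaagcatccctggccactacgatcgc

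The *Cxcr4* window held 3 copies of the GC box, GGGCGG, which is present in 35.7% of 32851 promoters of the same length. It held 1 NRF1 motif, TGCGCA, present in 7.76% of promoters. It also held the TATA box, TATAAA, present in 13.6% of promoters, once on each strand of the same stretch, so that the 2 matches overlap. The *Itga4* window held 1 GC box and none of the other motifs. The *Cd44* window held 1 GC box, 1 GATA site, spelled AGATAA and present in 11.2% of promoters, and 1 core of the hypoxia response element, spelled ACGTG and present in 19.6%. The *Itgb1* window held 1 GC box and 1 ETS site, spelled CCGGAA and present in 14.9% of promoters. A match describes these letters and does not show that a factor binds.

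To compare levels between genes, CPM was divided by the length in kilobases of each gene's merged exons. In *Rpl22*+/+ HSCs *Angpt1* had the highest level, 161 ± 4.98 CPM per kilobase (SD, n = 3), followed by *Itgb1* with 89.8 ± 2.53 and *Cxcr4* with 40.2 ± 4.57. *Itga4* with 31.0 ± 2.14 and *Itga6* with 29.5 ± 1.82 CPM per kilobase did not differ beyond their spread, nor did *Selplg* with 20.3 ± 1.35 and *Cd44* with 19.1 ± 1.64. *Itgal* had 1.57 ± 0.440 and *Vcam1* 0.142 ± 0.0208 CPM per kilobase. The HSCs thus carried abundant message for the niche ligand *Angpt1* and for the β1 integrin chain, and little for *Itgal* and for *Vcam1*. In *Rpl22*-/- HSCs the levels were 169 ± 4.08 for *Angpt1*, 84.9 ± 5.23 for *Itgb1*, 52.0 ± 4.53 for *Cxcr4*, 30.8 ± 0.598 for *Itga6* and 29.9 ± 3.43 CPM per kilobase for *Itga4*. *Selplg* then followed with 25.5 ± 3.21, *Cd44* with 20.9 ± 1.79, *Itgal* with 1.82 ± 0.780 and *Vcam1* with 0.253 ± 0.126 CPM per kilobase. The order of the 9 genes differed between the genotypes only in *Itga4* and *Itga6*, which lay within their spread of each other in both.

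**Figure D1:**
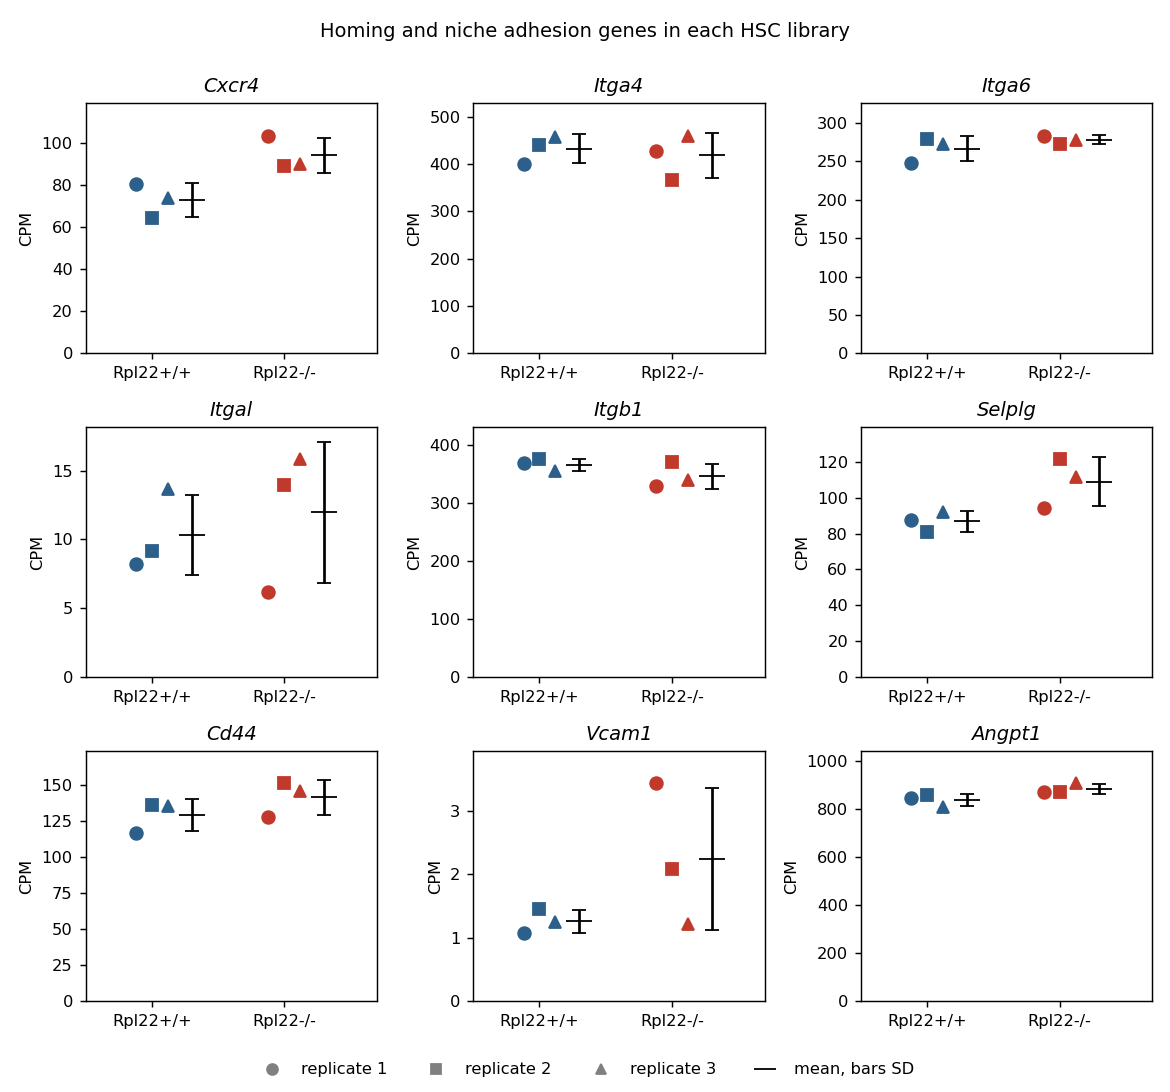
Level of each of the 9 genes in CPM (vertical axes, linear from 0) in the 3 *Rpl22*+/+ (blue) and 3 *Rpl22*-/- (red) HSC libraries, with symbols for the replicate and a black mean with SD bars. For *Cxcr4*, *Selplg* and *Angpt1* every red symbol lies above every blue symbol.

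The comparison of the genotypes asked whether loss of Rpl22 changed these messages in HSCs. Under the quasi-likelihood test of edgeR, with Benjamini-Hochberg adjustment over all 14004 genes, 1 of the 9 had an adjusted p below 0.05, *Cxcr4*, which was higher in *Rpl22*-/- HSCs. Of all genes tested, 5.57% passed in either direction and 3.28% passed as higher in *Rpl22*-/- HSCs, and a single call among 9 genes is not read as a property of the list. No member passed as lower (edgeR's quasi-likelihood test, with 0 lower at an unadjusted p below 0.05 and 0 by DESeq2 or limma-voom). The log2 fold change was positive for 7 members and negative for 2, with a median of 0.13, where 48.7% of all genes tested were positive and the median was −0.0068. All *Rpl22*-/- libraries lay on one side of all *Rpl22*+/+ libraries for 3 of the 9 (*Cxcr4*, *Selplg* and *Angpt1*), against 26.9% of all genes tested, a share close to that of the members. With scaling by library size alone, 369 of 850 genes called over the whole table were higher in *Rpl22*-/- HSCs, against 459 of 780 with TMM, and no member was called (2 had an unadjusted p below 0.05).

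**Figure D2:**
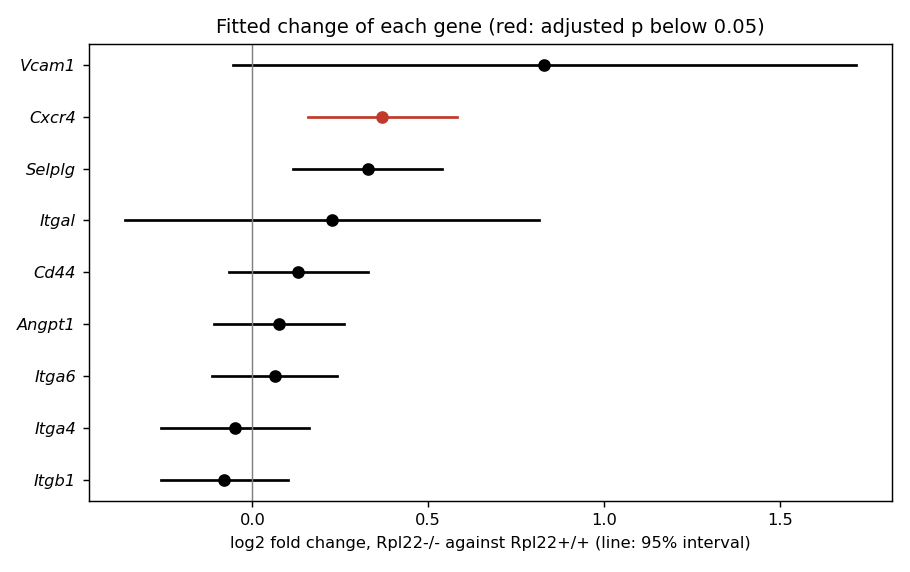
Fitted log2 fold change of each gene between *Rpl22*-/- and *Rpl22*+/+ HSCs (points) with its 95% interval (lines). The interval lies above 0 for *Cxcr4*, drawn in red for its adjusted p of 0.0427, and for *Selplg*, and it spans 0 for the other 7.

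*Cxcr4* (ENSMUSG00000045382, GRCm38 chromosome 1, reverse strand, 128588199 to 128592293) encodes the receptor for CXCL12 that retains HSCs in the marrow. Its level was 103, 88.7 and 89.8 CPM across *Rpl22*-/- replicates 1, 2 and 3, against 80.6, 64.1 and 73.6 CPM in *Rpl22*+/+ replicates 1, 2 and 3. Each *Rpl22*-/- library was above each *Rpl22*+/+ library, the nearest values being those of *Rpl22*-/- replicate 2 and *Rpl22*+/+ replicate 1. The mean rose from 72.8 ± 8.26 to 94.0 ± 8.20 CPM (SD, n = 3), or 1.29-fold, with a log2 fold change of 0.37 (standard error, SE, 0.10, edgeR quasi-likelihood adjusted p = 0.0427). Its 95% interval ran from 0.16 to 0.58. The call was close to the threshold. Leaving out any library ended it, with log2 fold changes from 0.28 without *Rpl22*+/+ replicate 2 (adjusted p = 0.192) to 0.45 without *Rpl22*+/+ replicate 1 (adjusted p = 0.0639), as did correcting each library for gene length (0.29, adjusted p = 0.0979). All 18 alternatives kept *Cxcr4* higher, and 9 of them kept the call, with adjusted p-values from 0.00491 to 0.192. The megakaryocyte, neutrophil, B cell and T and NK cell sums given above were higher in *Rpl22*-/- HSCs too, without overlap, and their part in this difference was not tested.

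Around CXCR4, 24 further genes for its ligand, its second receptor, its G proteins, the kinases and arrestins that switch it off, and the GTPases it acts through were examined, and 22 had enough reads. Of these, 1 rose and 1 fell, where 5.57% of all genes tested passed in either direction. The median log2 fold change of the 22 was 0.029. *Arrb2*, which encodes the β-arrestin that uncouples and internalises such receptors, rose from 71.6 ± 4.85 to 94.6 ± 5.89 CPM (SD, n = 3), with a log2 fold change of 0.40 (SE 0.089, edgeR quasi-likelihood adjusted p = 0.0184), and 5 of 18 alternatives ended the call. These were the fits without *Rpl22*-/- replicate 3, *Rpl22*+/+ replicate 1 (adjusted p = 0.114, the highest for *Arrb2*) or *Rpl22*+/+ replicate 2 and those with length and GC trends removed, without (adjusted p = 0.0719) and with the replicate block (0.0908). *Dpp4*, which encodes CD26, a surface peptidase that cleaves and inactivates CXCL12, fell from 71.1 ± 5.58 to 46.6 ± 4.25 CPM (SD, n = 3). It had 640, 502 and 633 reads in *Rpl22*-/- replicates 1 to 3 and 886, 843 and 745 in *Rpl22*+/+ replicates 1 to 3, and each of the former lay below each of the latter. The log2 fold change of *Dpp4* was −0.61 (SE 0.099, edgeR quasi-likelihood adjusted p = 0.00444), and it passed in all 18 alternatives. The chemokine gene *Cxcl12* itself had 3 to 8 reads per *Rpl22*-/- library and 5 to 29 per *Rpl22*+/+ library, too few for a test. The gene of the second CXCL12 receptor, *Ackr3* (listed as *Cxcr7*), had 0 reads in all 6. A count of 0 in a single library allows an expected count of up to about 3 there, and the 6 together allow less per library. *Gnai2*, a G protein subunit through which CXCR4 signals, measured 457 ± 41.7 CPM in *Rpl22*-/- and 380 ± 21.1 CPM in *Rpl22*+/+ HSCs (SD, n = 3 each; log2 fold change 0.27, adjusted p = 0.102). The related subunit gene *Gnai3* went the other way, with 186 ± 6.91 CPM in *Rpl22*-/- and 220 ± 8.16 CPM in *Rpl22*+/+ HSCs (log2 fold change −0.25, edgeR quasi-likelihood adjusted p = 0.0853).

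*Selplg* (ENSMUSG00000048163, chromosome 5, reverse strand, 113818536 to 113832644) encodes PSGL-1, the main ligand of P-selectin. It measured 94.1, 121 and 111 CPM across *Rpl22*-/- replicates 1, 2 and 3, against 87.6, 80.6 and 92.0 CPM in *Rpl22*+/+ replicates 1, 2 and 3. The genotypes did not overlap, but *Rpl22*-/- replicate 1 and *Rpl22*+/+ replicate 3 lay close together. Means were 109 ± 13.7 CPM in *Rpl22*-/- and 86.7 ± 5.75 CPM in *Rpl22*+/+ HSCs (SD, n = 3 each), and the log2 fold change of 0.33 (SE 0.099) narrowly missed the threshold (edgeR quasi-likelihood adjusted p = 0.0642). It passed with DESeq2 (adjusted p = 0.0452), without a filter on low counts (0.0141) and without *Rpl22*-/- replicate 1 (0.43, adjusted p = 0.00739), and it was positive in all 18 alternatives. The part of the megakaryocyte, neutrophil and lymphocyte sums, which were higher in the same libraries, was not tested.

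Of 17 genes for selectins, other selectin ligands and the enzymes that decorate them, 16 were tested and 1 rose. The share of all genes tested that passed as higher was 3.28%. None of the 16 fell by the adjusted threshold (1 lower at an unadjusted p below 0.05, and 0 by DESeq2 or limma-voom), and their median log2 fold change was 0.041. *Selp*, which encodes P-selectin, the binding partner of PSGL-1 on platelets, megakaryocytes and endothelium, had 465, 617 and 608 reads in the 3 *Rpl22*-/- libraries against 367, 306 and 224 in the 3 *Rpl22*+/+ libraries. It rose from 25.4 ± 2.54 to 44.6 ± 7.68 CPM (SD, n = 3), with a log2 fold change of 0.81 (SE 0.134, edgeR quasi-likelihood adjusted p = 0.00465). It was called in all 18 alternatives, and its lowest *Rpl22*-/- library was replicate 1. The megakaryocyte and neutrophil sums were higher in *Rpl22*-/- HSCs as well, and their part in this difference was not tested. The noncoding genes *Gm16587* and *Gm16548* overlap *Selp* on the other strand and had up to 58 and 171 reads, which cannot be told apart from those of *Selp* without strand.

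Of the enzymes that make PSGL-1 able to bind selectins, *Tpst2*, which sulfates its tyrosines, measured 89.2 ± 8.22 CPM in *Rpl22*-/- and 71.6 ± 1.83 CPM in *Rpl22*+/+ HSCs (SD, n = 3 each; log2 fold change 0.32, edgeR quasi-likelihood adjusted p = 0.0510). *Fut7*, the fucosyltransferase for the selectin-binding glycan, differed by 0.32 on the log2 scale (adjusted p = 0.221), and *Gcnt1*, which branches the glycans it sits on, by −0.14 (adjusted p = 0.414). *Cd34*, a sialomucin that can carry selectin ligands, measured 308 ± 33.0 and 331 ± 11.7 CPM (SD, n = 3; log2 fold change −0.11, adjusted p = 0.545).

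No difference was called for the 4 integrin subunits among the members by edgeR, DESeq2 or limma-voom, and 0 of them had an unadjusted p below 0.05 in edgeR. *Itgb1* (ENSMUSG00000025809, chromosome 8, forward strand, 128685654 to 128733200), the shared β chain, measured 329, 370 and 340 CPM across *Rpl22*-/- replicates 1, 2 and 3, against 369, 375 and 355 CPM in *Rpl22*+/+ replicates 1, 2 and 3, and the ranges overlapped. Its log2 fold change was −0.080 (SE 0.085, edgeR quasi-likelihood adjusted p = 0.629), and the 95% interval of the fold ran from 0.834 to 1.07. *Itga4* (ENSMUSG00000027009, chromosome 2, forward strand, 79255426 to 79333123) measured 428, 366 and 460 CPM in the 3 *Rpl22*-/- libraries, against 400, 441 and 457 CPM in the 3 *Rpl22*+/+ libraries. The *Rpl22*-/- libraries held both the lowest and the highest value of *Itga4*. Its log2 fold change was −0.049 (SE 0.099, adjusted p = 0.818), with an interval of the fold from 0.835 to 1.12, and its sign turned with the trends on gene length (0.036) or GC content (0.069) removed and without *Rpl22*-/- replicate 2 (0.039). The 3′ end of *Itga4* overlaps *Cerkl* on the other strand, which had up to 1450 reads, and the strand setting of the counting is not given in the sources used here.

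*Itga6* (ENSMUSG00000027111, chromosome 2, forward strand, 71745616 to 71858416) varied least of the members among *Rpl22*-/- libraries (coefficient of variation 1.94%), at 284, 273 and 278 CPM in the 3 *Rpl22*-/- libraries, against 248, 279 and 272 CPM in the 3 *Rpl22*+/+ libraries. Its log2 fold change was 0.063 (SE 0.084, edgeR quasi-likelihood adjusted p = 0.711; interval of the fold 0.923 to 1.18). *Itgal* (ENSMUSG00000030830, chromosome 7, forward strand, 127296260 to 127335138) had few reads, 79, 168 and 208 across *Rpl22*-/- replicates 1, 2 and 3, against 107, 114 and 131 in *Rpl22*+/+ replicates 1, 2 and 3. The *Rpl22*-/- libraries again lay on either side of the *Rpl22*+/+ libraries, and the level varied by 42.8% (coefficient of variation) among them. The log2 fold change of *Itgal* was 0.23 (SE 0.277, adjusted p = 0.683), with a 95% interval of the fold from 0.778 to 1.76. It was −0.028 without *Rpl22*-/- replicate 3 and 0.55 without *Rpl22*-/- replicate 1.

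Among 22 other integrin subunits, 16 were tested and 3 rose, while none fell by the adjusted threshold (2 lower at an unadjusted p below 0.05, and 0 by DESeq2 or limma-voom). The share of all genes tested that passed as higher was 3.28%. The median log2 fold change of the 16 was −0.049. *Itga2b* and *Itgb3*, whose products pair as the platelet fibrinogen receptor, rose from 407 ± 47.3 to 579 ± 45.2 CPM and from 102 ± 13.1 to 141 ± 16.8 CPM (SD, n = 3), with log2 fold changes of 0.51 and 0.47 (edgeR quasi-likelihood adjusted p = 0.0115 and 0.0216). *Itga2b* also belongs to the megakaryocyte list, of whose 8 genes tested 6 rose, *Itga2b* among them. It made up 579 CPM of that list's mean sum of 1221 CPM in *Rpl22*-/- HSCs, and 407 of 848 CPM in *Rpl22*+/+ HSCs. The calls of both were lost without *Rpl22*+/+ replicate 1 or *Rpl22*+/+ replicate 3, and that of *Itgb3* also without *Rpl22*-/- replicate 2, with adjusted p-values up to 0.102. *Itgb2*, the β chain that pairs with *Itgal*, had 793, 814 and 830 reads in *Rpl22*-/- and 511, 660 and 514 in *Rpl22*+/+ libraries and rose from 48.6 ± 8.07 to 64.2 ± 3.14 CPM (SD, n = 3). Its log2 fold change was 0.41 (SE 0.114, edgeR quasi-likelihood adjusted p = 0.0491), and 10 of 18 alternatives ended the call, among them the loss of any library other than *Rpl22*-/- replicate 1 (adjusted p up to 0.219 without *Rpl22*+/+ replicate 1). *Itgb2* is used by leukocytes at large, and the neutrophil and the T and NK cell sums were higher in *Rpl22*-/- HSCs as well, a part that was not tested. *Itgb7*, which can replace *Itgb1* as the partner of *Itga4*, measured 13.7 ± 0.453 and 11.1 ± 1.93 CPM (SD, n = 3; log2 fold change 0.31, adjusted p = 0.282).

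Integrins become adhesive when talin and kindlin bind their tails, and 26 genes for such activators, linkers and associated tetraspanins were followed as a further list. Of 22 tested, 2 rose and none fell by the adjusted threshold (1 lower at an unadjusted p below 0.05, and 0 by DESeq2 or limma-voom), and the median log2 fold change was 0.10. The share of all genes tested that passed as higher was 3.28%. *Cd9*, a tetraspanin that associates with integrins and is abundant on platelets and HSCs, had 3309, 3626 and 3600 reads in the 3 *Rpl22*-/- libraries against 2195, 2212 and 1355 in the 3 *Rpl22*+/+ libraries. It rose from 162 ± 19.1 to 278 ± 22.3 CPM (SD, n = 3), with a log2 fold change of 0.77 (SE 0.099, edgeR quasi-likelihood adjusted p = 8.72e-04), in all 18 alternatives. *Zyx*, which encodes the focal adhesion protein zyxin, rose from 212 ± 4.61 to 284 ± 16.3 CPM (SD, n = 3), by 0.42 on the log2 scale (SE 0.083, adjusted p = 0.0111) and lost its call without *Rpl22*-/- replicate 3 (adjusted p = 0.0514) or *Rpl22*+/+ replicate 1 (0.0697). *Epha1*, with up to 119 reads, overlaps *Zyx* on the other strand. The talin gene *Tln1* and the kindlin gene *Fermt3* had log2 fold changes of 0.21 and 0.23 (adjusted p = 0.204 and 0.136). The sum over megakaryocyte markers was higher in *Rpl22*-/- HSCs as well, and its part in the differences of *Cd9* and *Zyx* was not tested. Among the *Rpl22*-/- libraries that sum was highest in replicate 1 (1337 CPM), where *Cd9* and *Zyx* were lowest (258 and 269 CPM). Single genes of the megakaryocyte list went either way across *Rpl22*-/- replicates 1, 2 and 3. *Itga2b* measured 629, 566 and 542 CPM there, and *Gp5* 57.8, 73.1 and 75.1 CPM.

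**Figure D3:**
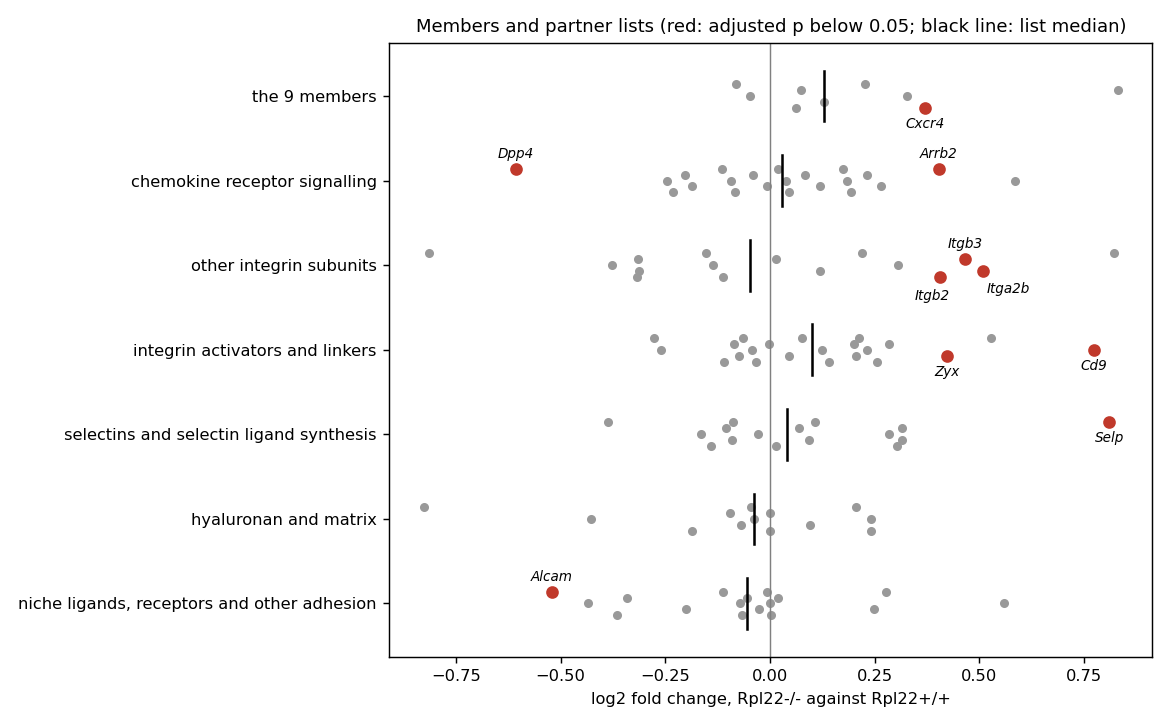
Log2 fold change between *Rpl22*-/- and *Rpl22*+/+ HSCs (horizontal axis) of every tested gene among the 9 members and the 6 partner lists (rows), with genes past an adjusted p of 0.05 in red and named, and list medians as black lines. *Selp* and *Cd9* lie farthest to the right among the named genes, and *Dpp4* and *Alcam* lie on the left.

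*Cd44* (ENSMUSG00000005087, chromosome 2, reverse strand, 102811141 to 102901665), the receptor for hyaluronan, measured 128, 151 and 146 CPM across *Rpl22*-/- replicates 1, 2 and 3, against 117, 136 and 135 CPM in *Rpl22*+/+ replicates 1, 2 and 3. Its ranges overlapped, with *Rpl22*-/- replicate 1 below 2 of the *Rpl22*+/+ libraries. The log2 fold change was 0.13 (SE 0.093, edgeR quasi-likelihood adjusted p = 0.443), and the fold had a 95% interval from 0.954 to 1.25. Of 15 genes for hyaluronan synthesis, matrix and the ezrin family that ties CD44 to actin, 13 were tested and 0 were called by edgeR's quasi-likelihood test, DESeq2 or limma-voom (3 had an unadjusted p below 0.05, 1 higher and 2 lower). Their median log2 fold change was −0.038, and 5.57% of all genes tested passed in either direction.

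*Vcam1* (ENSMUSG00000027962, chromosome 3, reverse strand, 116109949 to 116129688), which encodes the counter-receptor of the α4β1 integrin and is prominent on stromal cells, endothelium and marrow macrophages, was near the lower limit of these libraries. It had 44, 25 and 16 reads across *Rpl22*-/- replicates 1, 2 and 3, against 14, 18 and 12 reads in *Rpl22*+/+ replicates 1, 2 and 3. Scaled to CPM, *Rpl22*-/- replicates 1 and 2, at 3.43 and 2.08 CPM, were above the *Rpl22*+/+ libraries, at 1.08 to 1.44 CPM, and *Rpl22*-/- replicate 3, at 1.22 CPM, lay among them. The log2 fold change of 0.83 (SE 0.417, edgeR quasi-likelihood adjusted p = 0.257) had a 95% interval from −0.056 to 1.72, and it was 0.39 without *Rpl22*-/- replicate 1. The same library had the most reads of the macrophage complement genes, with 25, 28 and 33 reads of *C1qa*, *C1qb* and *C1qc*, against 1 to 19 reads of each in the other 5 libraries. The sum over the macrophage list was 290 CPM there and 280 CPM in *Rpl22*-/- replicate 2, of which *Lyz2* alone made up 231 and 219 CPM. *Csf1r* and *Cd68* of the same list were highest in *Rpl22*-/- replicate 2, not 1, and overlapped between the genotypes. Across *Rpl22*-/- replicates 1 to 3 they measured 10.1, 13.6 and 8.05 CPM (*Csf1r*) and 9.27, 10.7 and 5.24 CPM (*Cd68*). *Cd163*, at 31.6, 32.2 and 32.4 CPM in *Rpl22*-/- replicates 1 to 3, and *Mrc1*, at 1.25, 1.58 and 1.75 CPM, did not have their highest value in *Rpl22*-/- replicate 1. Both were nonetheless higher in each *Rpl22*-/- library than in the *Rpl22*+/+ libraries, at 19.1 to 27.4 and 0.61 to 1.04 CPM, and *Mrc1* did not pass the test (edgeR quasi-likelihood adjusted p = 0.259). The macrophage marker *Adgre1* (listed as *Emr1*) had 1 to 5 reads per library, and the endothelial marker *Cdh5* at most 1. The part of other cells in the *Vcam1* reads was not tested.

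**Figure D4:**
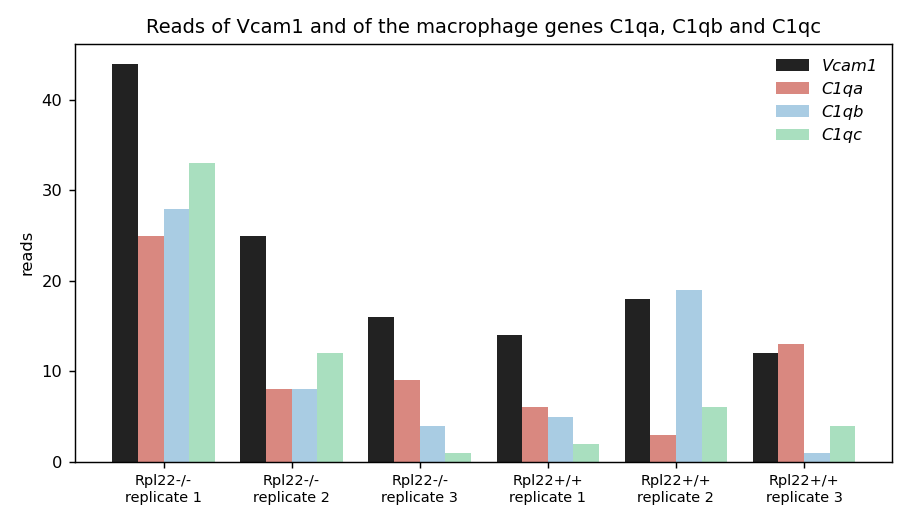
Reads (vertical axis, linear from 0) of *Vcam1* (black) and of the macrophage complement genes *C1qa*, *C1qb* and *C1qc* (coloured) in each of the 6 libraries. All 4 genes have their highest bar in *Rpl22*-/- replicate 1, at 44 reads for *Vcam1* and 25 to 33 for the others.

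*Angpt1* (ENSMUSG00000022309, chromosome 15, reverse strand, 42424723 to 42676977) was the most abundant member and differed little. It measured 870, 869 and 906 CPM across *Rpl22*-/- replicates 1, 2 and 3, against 848, 857 and 808 CPM in *Rpl22*+/+ replicates 1, 2 and 3. The genotypes did not overlap, yet the distance between them was small, with means of 882 ± 21.3 and 838 ± 25.9 CPM (SD, n = 3). The log2 fold change was 0.074 (SE 0.087, edgeR quasi-likelihood adjusted p = 0.669), and the 95% interval of the fold ran from 0.926 to 1.20. After correction of the libraries for gene length and GC content the log2 fold change was 0.26 (adjusted p = 0.102). Its receptor gene *Tek* measured 72.6 ± 2.37 CPM in *Rpl22*-/- and 76.1 ± 8.16 CPM in *Rpl22*+/+ HSCs (SD, n = 3; log2 fold change −0.066, adjusted p = 0.732). Of 23 other niche ligands, receptors and adhesion molecules, 17 were tested, with a median log2 fold change of −0.056. Over all genes tested, 5.57% passed in either direction. Of the 17, none rose by the adjusted threshold (2 higher at an unadjusted p below 0.05, and 0 by DESeq2 or limma-voom), and 1 fell. The one that fell was *Alcam*, which encodes an adhesion molecule of the immunoglobulin family, at 31.8 ± 3.29 against 45.7 ± 3.33 CPM (SD, n = 3; log2 fold change −0.52, adjusted p = 0.0160). Its call was lost in 6 of 18 alternatives (adjusted p up to 0.0708), among them those without *Rpl22*-/- replicates 2 or 3 and without *Rpl22*+/+ replicates 1 or 3.

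Ratios of partners within a library do not depend on the scaling between libraries, so 6 of them were compared as log2 ratios of reads per kilobase by exact two-sided permutation tests, for which 3 samples against 3 cannot give a p below 0.1. For *Itga4* to *Itgb1* the mean was −1.51 ± 0.247 in *Rpl22*-/- and −1.54 ± 0.125 in *Rpl22*+/+ HSCs (SD, n = 3; exact permutation p = 0.8, adjusted over the 6 ratios 0.8). For *Itga6* to *Itgb1* it was −1.46 ± 0.115 and −1.61 ± 0.0992 (exact permutation p = 0.3, adjusted 0.6). For both α chains the libraries of the genotypes overlapped, and the difference for *Itga4*, 0.028, changed sign without *Rpl22*-/- replicate 1 (−0.029), *Rpl22*-/- replicate 3 (−0.056) or *Rpl22*+/+ replicate 1 (−0.033). The ratio of *Itgal* to *Itgb2* was −3.64 ± 0.702 and −3.36 ± 0.281 (exact permutation p = 0.6, adjusted 0.72), and the difference of −0.28 became 0.12 without *Rpl22*-/- replicate 1. The ratio of *Itga4* to *Itga6* was −0.050 ± 0.151 and 0.068 ± 0.0445 (exact permutation p = 0.3, adjusted 0.6), and that of *Angpt1* to *Tek* 3.46 ± 0.0579 and 3.32 ± 0.182 (exact permutation p = 0.4, adjusted 0.6). *Cxcr4* to *Itga4* had the widest distance, 0.80 ± 0.179 in *Rpl22*-/- against 0.37 ± 0.242 in *Rpl22*+/+ HSCs, but *Rpl22*-/- replicate 3, at 0.59, was below *Rpl22*+/+ replicate 1, at 0.64 (exact permutation p = 0.2, adjusted 0.6).

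**Figure D5:**
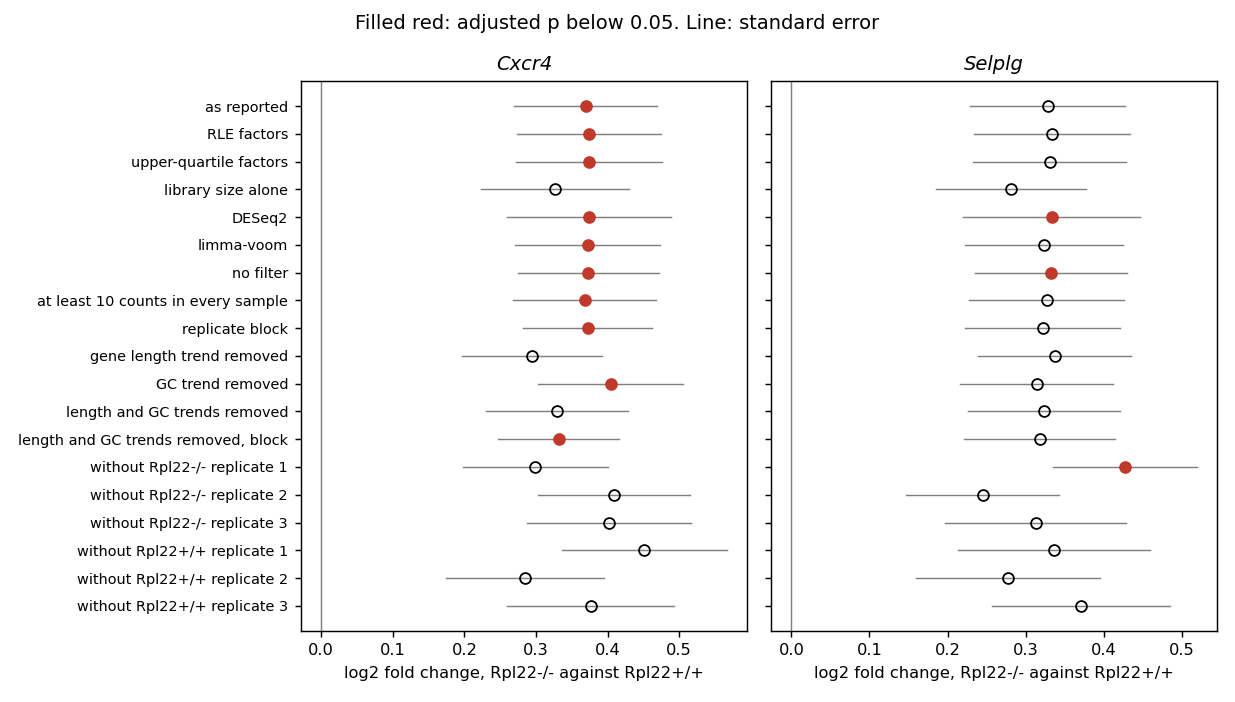
Log2 fold change of *Cxcr4* and *Selplg* (horizontal axes, with the SE as a line) as reported and in each of the 18 alternatives (rows), filled red where the adjusted p is below 0.05. All values are positive, *Cxcr4* is filled in 9 alternatives and in none that leaves out a library, and *Selplg* is filled in 3.

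The genes whose log2 CPM followed a member most closely over the 6 libraries were sought among 10645 or 10646 genes of adequate level, for the 3 members with the smallest p. They were *Tgtp1* (Pearson's r = 0.986) and *Zbtb24* (0.980) for *Cxcr4*, *Ap2m1* (0.997) and *Tmem106c* (0.997) for *Selplg*, and *3000002C10Rik* (0.996) and *Slc19a1* (0.988) for *Vcam1*. None of these 6 passed the test between the genotypes, with adjusted p-values from 0.131 to 0.824 by edgeR. With so many genes and 6 libraries that share their scaling, r of this size is a description of these libraries.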

How the data were processed

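RNA of sorted HSCs from 3 *Rpl22*-/- and 3 *Rpl22*+/+ samples was measured by polyA RNA-seq with a TruSeq RNA kit. The authors checked reads with FastQC, aligned them to mm10 with TopHat2 (version 2.1.1 in the submitters' processing notes) and deposited HTSeq counts per gene, as whole numbers without normalization. The annotation and strand setting are not given in the sources used here. The last 5 rows, reads assigned to no gene, held 58.6% to 60.9% of the counts and were left out. All 6 columns of samples were used.

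Genes with low counts were removed by filterByExpr (minimum count 10), which left 14004, libraries were scaled by TMM, and genotypes were compared by the quasi-likelihood test, all in edgeR 4.0.16 under R 4.3.3. P-values were adjusted by Benjamini-Hochberg over every gene tested. The SE is the size of the log2 fold change divided by the square root of its F value. A mean covers 3 libraries, which limits its precision. Positions and merged exon lengths came from GENCODE M21 on GRCm38, the assembly of mm10, matched for 30898 symbols. Promoters came from RefSeq.

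The members and lists were chosen with earlier results of these data known. The text names all members, each partner gene with an adjusted p below 0.05, direct binding partners, and for the 3 members with the smallest p the 2 genes most alike in pattern among those with an average log2 CPM of at least 3. A further gene that this rule would name is not reported here. The other partner and marker genes given with values (such as *Gnai2*, *Tpst2* and *Tln1*) fall outside the rule and were chosen after their values were seen.

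The comparison was repeated with DESeq2 1.42.0 and limma-voom (limma 3.58.1), with RLE factors, upper-quartile factors or no scaling beyond library size, without the filter or with 10 counts required of all samples, leaving out each library, with a replicate block, and with removal of trends on gene length and GC content (lowess, span 0.3, 95.4% of tested genes with both). The tests were first tested on simulated data. Summaries and figures were made in Python 3.11.15 (numpy 2.4.6, pandas 2.3.3, matplotlib 3.10.9, scipy 1.17.1).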

Additional observations from a re-analysis of the deposited data

How the results depend on the processing

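*Rpl22* stayed between −3.81 and −3.65 on the log2 scale in all 18 alternatives. Over all genes, 780 were called, 1422 with no filter on low counts, 509 with the GC trend removed, 509 with length and GC trends removed, and between 127 (without *Rpl22*-/- replicate 3) and 1720 (without *Rpl22*-/- replicate 1) with a library left out. Of the members, 1 was called. It was 2 with DESeq2 and 2 with no filter, *Cxcr4* and *Selplg* in each, and 0 by edgeR with library size alone, with the length trend removed and with length and GC trends removed, where 2, 3 and 5 members had an unadjusted p below 0.05. With a library left out the count was 0 to 1, the 1 being *Selplg* without *Rpl22*-/- replicate 1. Of the 106 partners tested, 9 were called, where 5.57% of all genes tested were called. The count of partners was 15 with no filter and 3 to 22 with a library left out. The ends were without *Rpl22*+/+ replicate 1 and without *Rpl22*-/- replicate 1, and it was 5 without *Rpl22*-/- replicate 3 or *Rpl22*+/+ replicate 3. The sign of *Itga4* turned to 0.036 with the length trend removed, 0.069 with the GC trend removed, 0.15 with both removed, 0.15 with both removed and the replicate block, and 0.039 without *Rpl22*-/- replicate 2, in a range from −0.12 to 0.039 with a library left out. That of *Itgal* turned to −0.028 without *Rpl22*-/- replicate 3, in a range from −0.028 to 0.55. The differences of the within-library ratios moved by less than the spread between replicates with a library left out, from −0.55 to 0.56 over the 6 ratios, but 2 changed sign. *Itgal* to *Itgb2* ran from −0.55 to 0.12 and *Itga4* to *Itgb1* from −0.056 to 0.17. Causes of these changes were not tested.

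The replicate block left 1 member and 9 partners called and gave 904 genes over the whole table, with *Cxcr4* at 0.37 (adjusted p = 0.0204). Same-numbered samples had correlations of −0.103, 0.055 and 0.045 between their deviations from the group means, so the numbers were not taken to pair the samples. Below about 50 reads, as for *Vcam1*, depth limits what could be seen. RLE factors, upper-quartile factors, limma-voom and the stricter filter left the counts of members and partners within 1.5 times those reported.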
